A study of Mus musculus with 12 samples.

Results

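The later effect of losing Blimp-1 was described by setting the 3 Blimp-1 cKO arrays of Day 4 (D4) against the 3 wild type arrays of the same day, 6 of the 12 arrays of the study. The probes described were those with a detection p-value below 0.05 on at least 3 of these 6 arrays. They numbered 18627 of 45281, and 16035 of them carried a single gene symbol and stood for 10165 genes. Where a gene had several such probes, the brightest on average at D4 represented it.

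Primary mammary epithelial cells (MECs) were grown in Matrigel as three-dimensional (3D) cultures, in which they form hollow acini, and RNA was hybridised to Illumina Mouse WG-6 v2 BeadChips at Day 3 (D3) and D4. Wild type MECs came from pregnant C57BL/6 females. Blimp-1 cKO MECs came from pregnant Prdm1 BEH/CA;ROSA26:CreERT2 females, whose Cre recombinase is expressed from the ROSA26 locus in all cells and becomes active on exposure to tamoxifen. Cultures of both genotypes received 4-hydroxytamoxifen on the day of plating, and both were kept in the same medium with insulin, hydrocortisone, EGF and serum. No Cre allele is given for the wild type females, so the lack of Blimp-1, the activity of Cre and the origin of the donors cannot be told apart on these arrays. The study describes its cultures of each genotype as independent, but whether the 3 behind a group had separate donor animals is not stated. The p-values therefore reflect only how far these samples spread, and that spread may be technical.

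Blimp-1, the product of Prdm1, is a zinc finger protein that represses transcription by recruiting corepressors to its target genes. It is best known for driving the terminal differentiation of plasma cells, and in the mammary gland it marks rare luminal progenitors. Mammary epithelium consists of an inner luminal layer that secretes milk and an outer basal layer of contractile myoepithelial cells. Insulin, glucocorticoids such as hydrocortisone and, in the animal, prolactin together drive the luminal cells towards secretion.

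Probe 2597923, the Prdm1 probe above background, was detected on none of the 3 wild type arrays, with normalized log2 signals of 5.84, 5.53 and 5.33. It was detected on all 3 cKO arrays, at 6.85, 6.99 and 6.61. The signal was at least 1.49-fold higher in the cKO (adjusted p = 0.00417), a call that ended without background correction. This and every other "at least" fold takes, in a group where the probe was never above background, the faintest detected signal of each array in its place if that was higher. The other Prdm1 probe (2744650) was below background on all 6 arrays. The place of either probe relative to the deletion is not stated, and neither probe tests the deletion. The luminal keratin genes Krt8 and Krt18 and the basal keratin gene Krt14 had mean log2 signals above 14 in both genotypes, near the highest signal on the D4 arrays of 15.08.

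Between 18087 and 18905 probes were detected on the wild type arrays at D4 and between 18212 and 18682 on the cKO arrays. At D4 the replicate number was also the BeadChip, so that each BeadChip held an array of each genotype. D4 wild type replicate 1 stood above the other wild type arrays in 23 of 24 extracellular matrix genes, 10 of 11 fibroblast markers and 8 of 9 myeloid markers, against 35.8% of all genes. On the cKO side, the array of the same BeadChip was the highest in 20 of the 24 matrix genes. Results on matrix, contractile and fibroblast genes are therefore also given without that wild type array.

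Between the genotypes 466 of 10165 genes differed at D4 (4.58%). The higher genes numbered 300 (2.95% of genes tested) and the lower genes 166 (1.63%). Counts of called members of gene lists below are to be read against these shares of all genes. Calls required a fold of 1.5 or more and an adjusted p no higher than 0.05. Increases were also larger, with a median log2 fold change of 1.10 among the higher genes and -0.85 among the lower ones. Of the higher genes 173 changed at least 2-fold, and of the lower genes 61. The 3 cKO arrays lay beyond the 3 wild type arrays in 299 higher and 165 lower genes, while 25.1% of all genes had such groups. Across all genes the median log2 fold change was -0.02 and the median absolute value 0.16.

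**Figure D1:**
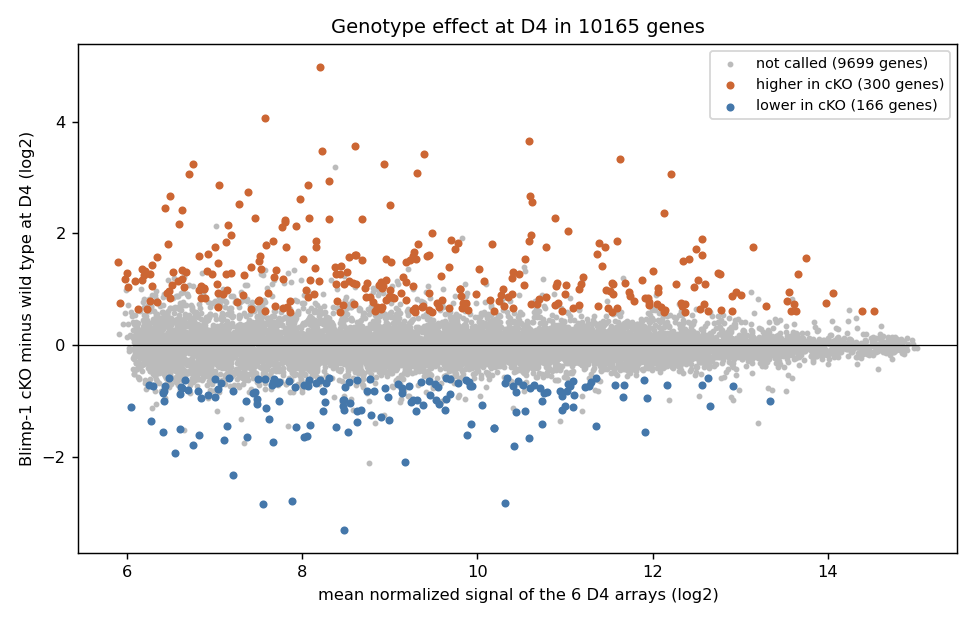
Log2 difference between Blimp-1 cKO and wild type at D4 against the mean normalized log2 signal of the 6 arrays, with a point for each of 10165 genes. The 300 higher genes reach further from 0 than the 166 lower genes, and above a mean signal of 14 only 3 genes were called.

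Called genes were found at all levels of signal and were rarest among the brightest. Of 2454 genes with a mean log2 signal under 8, 90 were higher and 54 lower. Of 260 genes above 14, 3 were higher and 0 lower by limma, and their median absolute difference was 0.07, against 0.24 in the dimmest class. Differences of very bright genes, such as the main keratins and milk fat globule proteins, are measured close to the top of the scale.

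The count of lower genes moved with the arrays and the block in the fit. The D4 arrays alone gave 254 higher and 111 lower genes, and the BeadChip block on all 12 arrays gave 334 and 141. Fitted without the D3 arrays and with the BeadChip as a block, the 6 D4 arrays gave 191 higher and 41 lower genes, of which 169 and 37 were among the 300 and 166. Within the BeadChips, 165 of the 166 lower genes had the same sign on all 3, and 83 passed 1.5-fold on all 3. For the higher genes these numbers were 300 and 222 of 300. The lower genes numbered 94 without D4 wild type replicate 3.

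Of the 300 higher genes, 43 were in the lists of interferon-stimulated and MHC class I genes. The other 257 held 141 genes with a change of at least 2-fold, and 35 of the 257 were below background on all wild type arrays. The lists do not hold every interferon-inducible gene, and Ccl5 and Ifi27l2a, which interferon induces, are among the 257. The 257 are therefore not a count of genes outside the interferon response. Of the 166 lower genes, 9 were below background on all cKO arrays. Where a called gene had further tested probes, 80 of 95 such probes had the same sign for the lower genes and 132 of 143 for the higher ones, and 35 and 84 passed in the same direction.

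The genes with the largest decreases were a mixture of secreted, cytoskeletal and metabolic genes. Cdkn1c encodes p57, an inhibitor of cyclin-dependent kinases. Its log2 signals were 11.48, 11.95 and 11.76 on the wild type arrays and 8.86, 8.93 and 8.91 on the cKO arrays, and it fell by 2.83 on the log2 scale (standard error 0.22, adjusted p = 3.18e-05). The groups were far apart, and its cKO arrays differed from each other by less than 0.1.

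Pip encodes prolactin-induced protein, a glycoprotein secreted by the mammary gland. The wild type arrays held log2 signals of 9.57, 8.78 and 9.49, and the cKO arrays 6.07, 6.95 and 6.47 (difference of -2.79 with a standard error of 0.28, adjusted p = 0.000198). It was above background on 2 of the 3 cKO arrays. Tmod4 encodes a tropomodulin, which caps the slow-growing ends of actin filaments. It had 8.54, 8.47 and 8.10 on wild type arrays and 6.06, 5.73 and 6.35 on cKO arrays, with a log2 fold change of -2.33 (adjusted p = 0.000375). The other tested probes of Tmod4 (2488846 and 2438793) were lower too, by 2.15 and 1.61 on the log2 scale. Both were below background on all cKO arrays, so the sizes of their falls are uncertain.

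Gpx3 encodes a glutathione peroxidase that cells secrete. Its log2 signals were 11.73, 11.15 and 11.10 on wild type arrays and 9.82, 9.49 and 9.23 on cKO arrays (log2 fold change of -1.81, adjusted p = 0.000455). Pbp2, of the phosphatidylethanolamine-binding protein family, had a log2 fold change of -2.85 and Aspg, an asparaginase gene, was at least 2.44-fold lower. The rule that picked the genes with the largest changes required groups without overlap.

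Some of the large decreases rested on 1 probe or were less even. Clec2e, a C-type lectin gene, had wild type log2 signals of 11.12, 9.40 and 9.87 and cKO log2 signals of 7.21, 6.85 and 6.42, but another of its probes (2624092) differed by -0.18 (adjusted p = 0.75). Col9a1, a cartilage collagen gene, fell by 1.64 on the log2 scale while another of its probes (2939882) differed by -0.11 (adjusted p = 0.90). Gsg1l, which encodes an accessory subunit of AMPA receptors, had a log2 fold change of -1.70, and its cKO replicate 2 (7.33) lay close to the wild type arrays (7.75 to 8.38). Cyp4b1, a cytochrome P450 gene, fell by 1.73 on the log2 scale, with D4 wild type replicate 1 highest at 9.43. The call of Gsg1l was kept in 6 of 8 alternative settings and 3 of 6 fits without a single array. For Cyp4b1 these were 5 of 8 and 5 of 6, and the adjusted p reached 0.14 for Gsg1l and 0.162 for Cyp4b1.

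**Figure D2:**
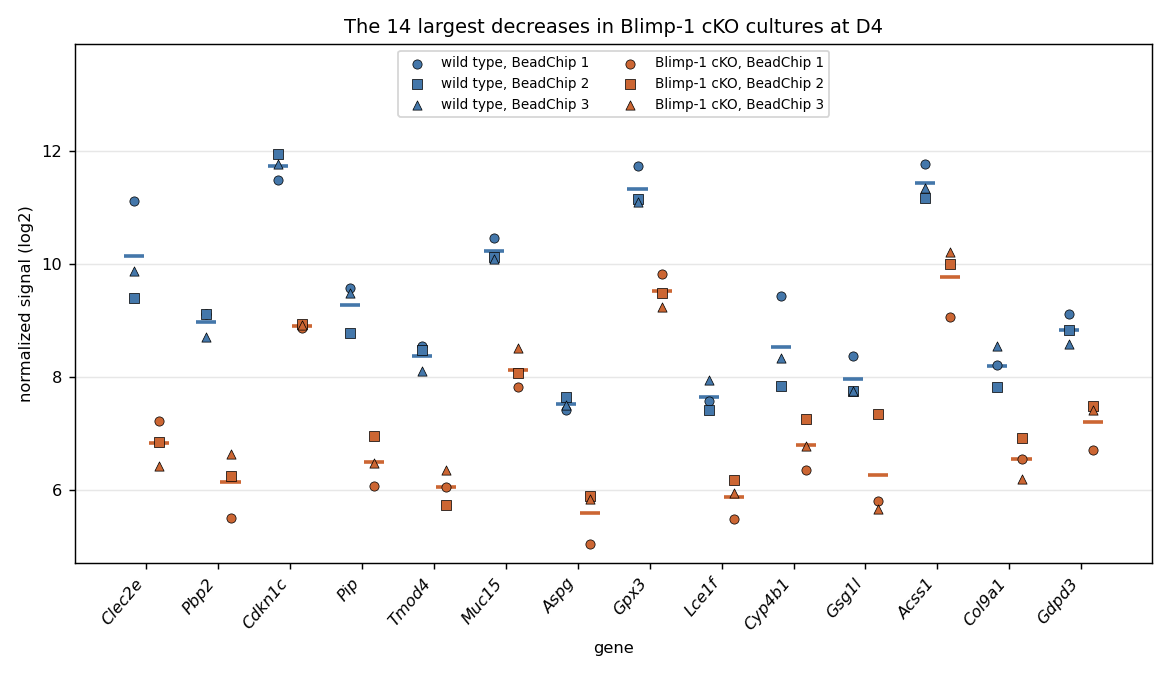
Normalized log2 signals on the 6 D4 arrays of the 14 genes with the largest decreases in Blimp-1 cKO cultures, wild type in blue and cKO in orange. Marker shapes give the BeadChip and horizontal lines the group means. The genes were picked among those whose groups do not overlap, and the groups come close in Gsg1l (7.33 against 7.75).

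Part of the genes that answer to glucocorticoids, a class of hormone present in the medium as hydrocortisone, fell. Of 25 tested genes of the list, 8 were lower (1.63% among all genes) and none higher, 20 had a negative difference, and the median was -0.42. Sult1a1, a sulfotransferase gene, had log2 signals of 11.71, 11.07 and 11.52 on wild type arrays and 9.65, 10.14 and 10.30 on cKO arrays. Its groups did not overlap, as in 25.1% of all genes. It was called (adjusted p = 0.0336), but the call ended in 7 of 14 alternatives, with an adjusted p of up to 0.114. Foxo3, a transcription factor held in check by insulin, had 9.66, 9.71 and 9.63 against 8.37, 8.59 and 8.01, and fell by 1.35 on the log2 scale (adjusted p = 0.000455). Its wild type arrays were within 0.1 of each other. The most widely used reporters of the receptor, Tsc22d3 and Fkbp5, named after their values were seen, fell by 0.94 (adjusted p = 0.0256) and 0.72 (adjusted p = 0.0154) on the log2 scale.

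The brightest members did not pass. Mt1, a metallothionein gene, differed by 0.11, and Lcn2, which encodes the secreted lipocalin NGAL, by -0.12, both at log2 signals above 14. The list was written with results of these arrays known, so its direction is not independent evidence. Its count was 3 in the fit of the D4 arrays alone with the BeadChip block, 4 without any single wild type array or D4 cKO replicate 2, 6 without D4 cKO replicate 3 and 2 without D4 cKO replicate 1, while its median stayed between -0.34 and -0.47 in these settings.

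Insulin signalling showed a few lower members and no shift of the list. Of 23 tested genes 4 were lower and 0 higher, and the median was -0.01. Besides Foxo3 these were Irs2, an adaptor of the insulin receptor (log2 fold change of -1.07), Pik3ip1, an inhibitor of PI3-kinase (-0.82), and Eef2k, the kinase that slows translation elongation (-1.18, adjusted p = 0.0112). Eef2k had 9.38, 9.12 and 9.14 on wild type arrays and 7.62, 8.35 and 8.13 on cKO arrays. The bright genes Igfbp5, an IGF-binding protein gene, and Pik3r1, the regulatory subunit of PI3-kinase, differed by -0.02 and -0.20 and did not pass. The call of Irs2 ended in 5 of the alternatives, with an adjusted p of up to 0.106. The list held 2 lower genes without D4 wild type replicate 2 or 3 or D4 cKO replicate 1. With the BeadChip block on the D4 arrays alone 2 were lower and 1 higher, and the adjusted p of Eef2k was 0.0759.

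Of 20 tested milk and alveolar genes, 3 were lower and none higher, with a median of -0.40. Besides Pip these were Muc15, a membrane mucin found on milk fat globules, and Slc5a5, the sodium iodide symporter that carries iodide into milk. Muc15 had log2 signals of 10.46, 10.13 and 10.08 on wild type arrays and 7.82, 8.06 and 8.51 on cKO arrays (log2 fold change of -2.09, adjusted p = 0.0313). Slc5a5 had 9.74, 9.31 and 8.88 against 8.06, 7.81 and 7.95 (log2 fold change of -1.37, adjusted p = 0.029). The groups did not overlap in either gene, as in 25.1% of all genes, and for Muc15 the rule of choice required it. Mfge8, the milk fat globule protein lactadherin, and Ltf, lactoferrin, were at the top of the scale and differed by -0.03 and 0.02.

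The calls of Muc15 and Slc5a5 ended in 7 alternatives each, with an adjusted p of up to 0.0992 and 0.0889, and that of Pip in none. With the BeadChip block on the D4 arrays alone, 5 members were lower. Without D4 wild type replicate 1 or 2 or D4 cKO replicate 1 or 2, only 1 was lower, and without either of the other two arrays 2 were. Of 12 tested genes of prolactin and STAT5 signalling, Id2 was lower (-0.83), while another of its probes (1236868) differed by 0.03. The call of Id2 was kept in 4 of 8 alternative settings and 1 of 6 fits without a single array (adjusted p of up to 0.116). Cebpb and Ccnd1, a transcription factor and a cyclin needed for alveolar growth, differed by -0.05 and 0.12.

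Transport of ions and solutes supplies the secretory cells. Of 19 genes of this list tested, 3 were lower, 1 was higher and 14 had negative differences, with a median of -0.29. Slc5a9, a sodium-coupled sugar transporter, fell by 1.28 on the log2 scale, and its other tested probe (2427410) by 1.12. Slc46a3, a transporter of the lysosomal membrane, fell by 0.85, and the higher gene was Fxyd5, a regulator of the sodium pump (0.67). With the BeadChip block on the D4 arrays alone, the adjusted p was 0.105 for Slc5a9 and 0.155 for Slc46a3.

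Of 26 tested genes of fatty acid and lipid metabolism 6 were lower and none higher, with a median of -0.13. Acss1, a mitochondrial enzyme that turns acetate into acetyl-CoA, had 11.77, 11.16 and 11.34 on wild type arrays and 9.06, 9.999 and 10.22 on cKO arrays (log2 fold change of -1.66, adjusted p = 0.00725). Gdpd3, an enzyme that cleaves lysophospholipids, had 9.10, 8.82 and 8.58 against 6.71, 7.48 and 7.41. Acaa1b, a peroxisomal thiolase, fell by 1.19 on the log2 scale, and Acss2, Acot6 and Faah made up the 6. Of the list 1 gene was lower with the BeadChip block on the D4 arrays alone, and the adjusted p was 0.0943 for Acss1 and 0.0544 for Gdpd3. The desaturase genes Scd1 and Fads1 differed by -0.04 and 0.11, and of 19 cholesterol synthesis genes none passed (4 at an unadjusted p under 0.05).

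Of 20 tested actin and cytoskeletal regulators 8 were lower and none higher, with a median of -0.47, which was -0.13 within BeadChip 2. Cap1, which recycles actin monomers, is one of the brightest lower genes. Its log2 signals were 13.09, 13.29 and 13.20 on wild type arrays and 12.04, 12.18 and 12.12 on cKO arrays, and it fell by 1.08 (standard error 0.12, adjusted p = 0.000358). Sorbs2, an adaptor of stress fibres, fell by 0.96, although its other tested probe (1236413) differed by -0.05. The other 5 besides Tmod4 were Net1, Arhgap42, the spectrin gene Sptb, and Map2 and Nes, of microtubules and intermediate filaments. Tpm4, an abundant tropomyosin of the filaments themselves, differed by -0.02. With the BeadChip block on the D4 arrays alone 2 of the 8 passed, and 7 to 9 were lower without single arrays. Some members of this list were known to be lower when it was written.

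The 3 inhibitors of the Cip/Kip family moved in opposite directions. Cdkn1c fell, as given above, and Cdkn1b, which encodes p27, fell by 1.16 on the log2 scale, from 9.49, 9.26 and 8.99 to 7.83, 8.01 and 8.44 (adjusted p = 0.00335, or 0.0927 with the BeadChip block on the D4 arrays alone). Cdkn1a, which encodes p21 and is induced by p53, rose by 1.18, from 11.92, 11.98 and 11.90 to 13.24, 13.32 and 12.77 (adjusted p = 0.00211). The groups did not overlap in any of the 3, as in 25.1% of all genes, and for Cdkn1c the rule of choice required it. All 3 tested probes of Cdkn1a rose. It was the only called gene of 15 tested p53 targets, whose median was 0.32.

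Genes of the cell cycle did not change as a group. Of 21 tested genes 0 passed by limma (0 at an unadjusted p under 0.05) with a median of -0.04, and of 23 DNA replication genes 0 passed (1 at an unadjusted p under 0.05) with a median of -0.06. The arrays of a genotype differed from each other in these genes. The cKO array of BeadChip 1 was the highest of the 3 cKO arrays in 17 of 21 cell cycle genes, while the wild type array of that BeadChip was the highest of its group in 1. The median difference within the BeadChips accordingly ran from 0.40 over -0.15 to -0.36, and no direction can be read from it. Prc1 and Cenpa, proteins of the mitotic spindle and the centromere, differed by 0.00 and -0.10.

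Squamous genes were lower in part. Of 14 tested genes of the cornified envelope and its regulators 4 were lower and none higher, with a median of -0.24. Tgm5, a transglutaminase gene, had 8.79, 8.64 and 8.96 on wild type arrays and 6.84, 7.34 and 7.96 on cKO arrays (log2 fold change of -1.42, adjusted p = 0.0226). Zfp750 and Grhl1, transcription factors of epidermal differentiation, fell by 1.11 and 0.83, and Lce1f was at least 2.67-fold lower. The call of Zfp750 was kept in 0 of 6 fits without a single array, that of Tgm5 in 2 and that of Lce1f in 4. Their adjusted p reached 0.12, 0.0885 and 0.0714 in the alternatives. Without D4 cKO replicate 1 none of the list passed by limma, and 1 did without D4 wild type replicate 3 or D4 cKO replicate 2 and 2 without D4 wild type replicate 2.

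Most lineage markers of the epithelium did not pass. Of 14 luminal genes 2 were lower (1.63% among all genes), Ly6d and Kit, both known from luminal progenitors. Ly6d had 11.43, 10.24 and 10.21 on wild type arrays and 9.35, 8.98 and 9.34 on cKO arrays, and Kit had 11.82, 10.81 and 11.09 against 10.11, 10.27 and 10.34. A further probe of each (2803921 and 1216898) was lower too, with log2 fold changes of -1.45 and -1.25. In both genes D4 wild type replicate 1 was the highest array, and the adjusted p was 0.034 for Ly6d and 0.0457 for Kit, or up to 0.107 and 0.145 in the alternatives. Krt8 and Krt18 differed by 0.07 and 0.14.

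Of 18 basal genes 1 was higher (2.95% among all genes), Krt17 (log2 fold change of 0.62), and the median was 0.15. D4 wild type replicate 1 was the highest wild type array in 14 of the 18, and without it 5 were higher. Without D4 wild type replicate 2 or 3 or D4 cKO replicate 1 or 2, 0 passed by limma, and the call of Krt17 ended in 7 alternatives, with an adjusted p of up to 0.108. Of 12 contractile genes all had a positive difference, with a median of 0.50, and Actg2, the enteric smooth muscle actin, passed. It had 10.19, 9.63 and 9.48 on wild type arrays and 11.63, 11.32 and 11.003 on cKO arrays (log2 fold change of 1.55, adjusted p = 0.0181). Acta2, the vascular smooth muscle actin and a standard myoepithelial marker, had 14.33, 13.85 and 13.60 against 14.71, 14.57 and 14.37. It did not pass (adjusted p = 0.0632). Its other tested probes (2923445, 2710354 and 2710353) were less bright, rose by 0.98, 1.06 and 0.97 and did not pass either. Acta2 stayed without a call in 4 of 8 alternative settings and 5 of 6 fits without a single array. Without D4 wild type replicate 1, the array with the highest levels of these genes, 5 contractile genes passed and the median was 0.74. Without any of the other arrays except D4 cKO replicate 3, 0 passed by limma, with a median between 0.37 and 0.48, and without that array 2 passed.

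Matrix genes showed the same dependence. Of 24 tested, 2 were higher and 1 lower (2.95% and 1.63% among all genes), with a median of 0.52, and 20 had positive differences. Spon2, which encodes the secreted matrix protein mindin, rose most, from 9.91, 9.19 and 8.92 to 12.42, 11.67 and 11.61 (log2 fold change of 2.56, adjusted p = 0.00143). Col8a1, a short-chain collagen gene, rose by 1.07 on the log2 scale, and its other tested probe (2503553) by 0.96. The bright genes Bgn and Tnc, biglycan and tenascin C, had differences of 0.42 and 0.83 that did not pass. The other tested probes of Tnc rose by 0.89 to 1.64, and of these only 2567596 (1.64) passed. Tnc stayed without a call in 6 of 8 alternative settings and 5 of 6 fits without a single array. Without D4 wild type replicate 1, 10 genes were higher and the median was 0.74.

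Of 19 genes of matrix proteolysis, proteases and their inhibitors, 4 were higher and none lower, with a median of 0.52. Plat and Plau encode the plasminogen activators. Plat had 10.55, 10.68 and 10.55 on wild type arrays and 12.22, 11.64 and 11.59 on cKO arrays (log2 fold change of 1.22, adjusted p = 0.00222), and Plau rose by 0.76. The gelatinase gene Mmp9 rose by 0.92 and Timp1, an inhibitor of these proteases, by 0.62. Without D4 wild type replicate 3 or D4 cKO replicate 1, or with the BeadChip block on the D4 arrays alone, 1 gene of the list passed, and without D4 wild type replicate 1, 6. Among 19 integrin and adhesion genes Sdc4, a heparan sulfate proteoglycan of the cell surface, was lower (-1.08, adjusted p = 0.024, and up to 0.141 in the alternatives), and of 22 junction and polarity genes 0 passed by limma (5 at an unadjusted p under 0.05), with a median of 0.02.

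**Figure D3:**
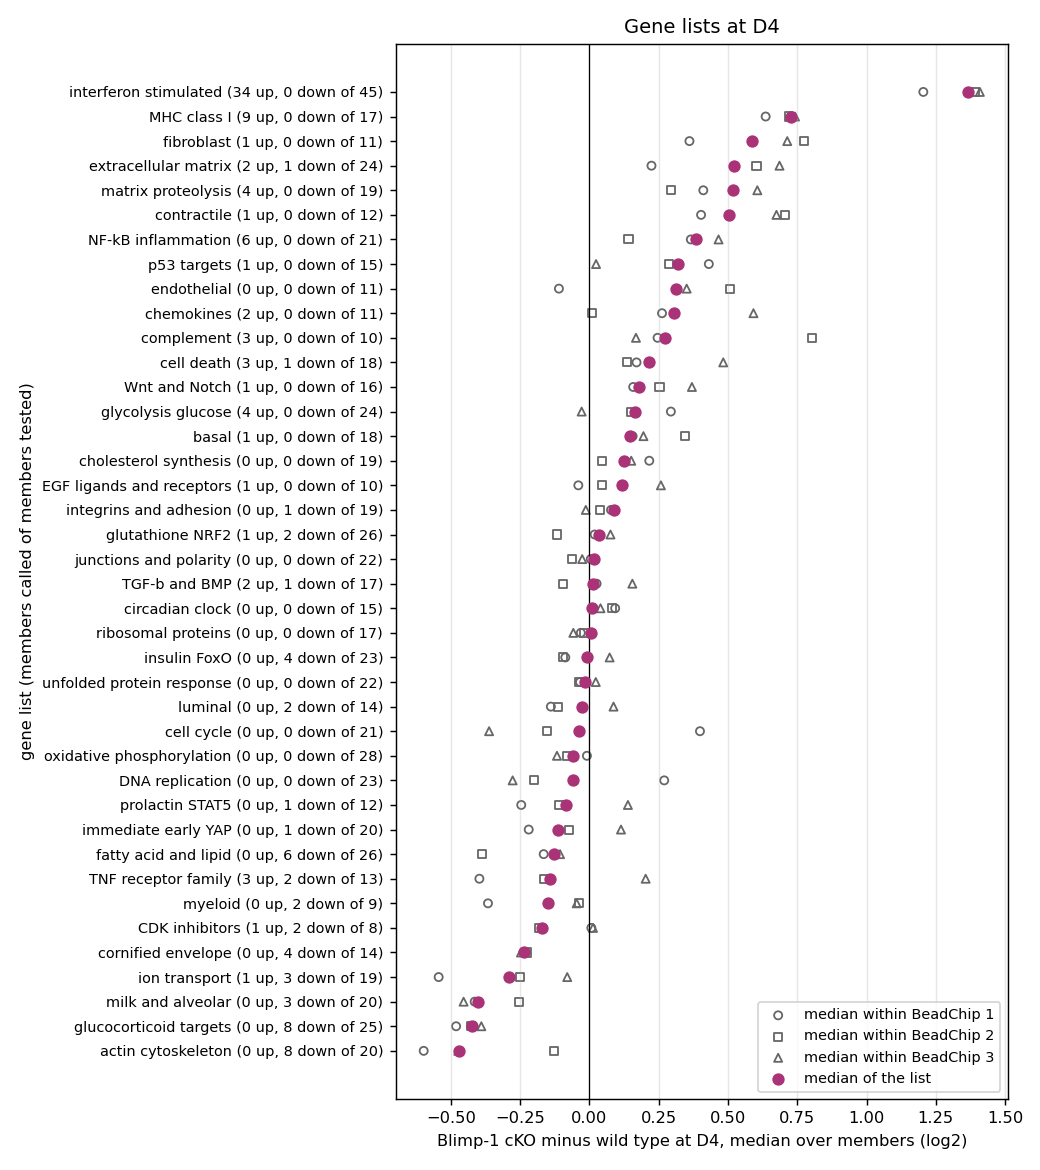
Median log2 difference between Blimp-1 cKO and wild type at D4 for the 40 gene lists with at least 8 tested members, with the medians within each of the 3 BeadChips as open markers. The interferon-stimulated list lies at 1.37 and the actin list at -0.47 (-0.13 within BeadChip 2), and the cell cycle list is spread from -0.36 to 0.40 over the BeadChips.

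The 12 largest increases outside the lists of interferon-stimulated and MHC class I genes included Ccl5 and Ifi27l2a, which interferon also induces. Tceanc2, named for a domain shared with elongation factor TFIIS, was below background on all wild type arrays (5.78, 5.26 and 5.62) and had 9.42, 9.65 and 9.77 on cKO arrays, at least 10.3-fold higher (adjusted p = 8.64e-08). Its 2 other tested probes rose by 2.90 and 2.11 on the log2 scale. Both were also below background on all wild type arrays, so the sizes of these rises are uncertain. Tmem106b, a lysosomal membrane protein, had 6.25, 6.25 and 6.97 against 9.95, 10.17 and 9.77. Mgmt, which removes alkyl groups from DNA, had 7.09, 6.60 and 6.75 against 10.68, 10.45 and 10.02.

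Ccn5, a secreted matricellular protein, rose by 3.66 on the log2 scale (standard error 0.36, adjusted p = 0.000198), from 9.51, 8.21 and 8.55 to 12.22, 12.82 and 12.20. Tnfrsf22, a decoy receptor for the death ligand TRAIL in mice, rose from 10.18, 9.95 and 9.74 to 13.35, 13.25 and 13.30. Its 4 tested probes differed, with log2 fold changes of 3.34, 3.32 (2892413), 0.20 (2522818) and -0.74 (1215416). Clca2, a regulator of chloride channels, was at least 5.69-fold higher, and Gml2, of the Ly6 family of surface proteins, at least 4.40-fold. Fuom, a fucose mutarotase, rose by 2.94 on the log2 scale. Ifi27l2a, an interferon-inducible gene outside the list used, rose by 3.09.

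**Figure D4:**
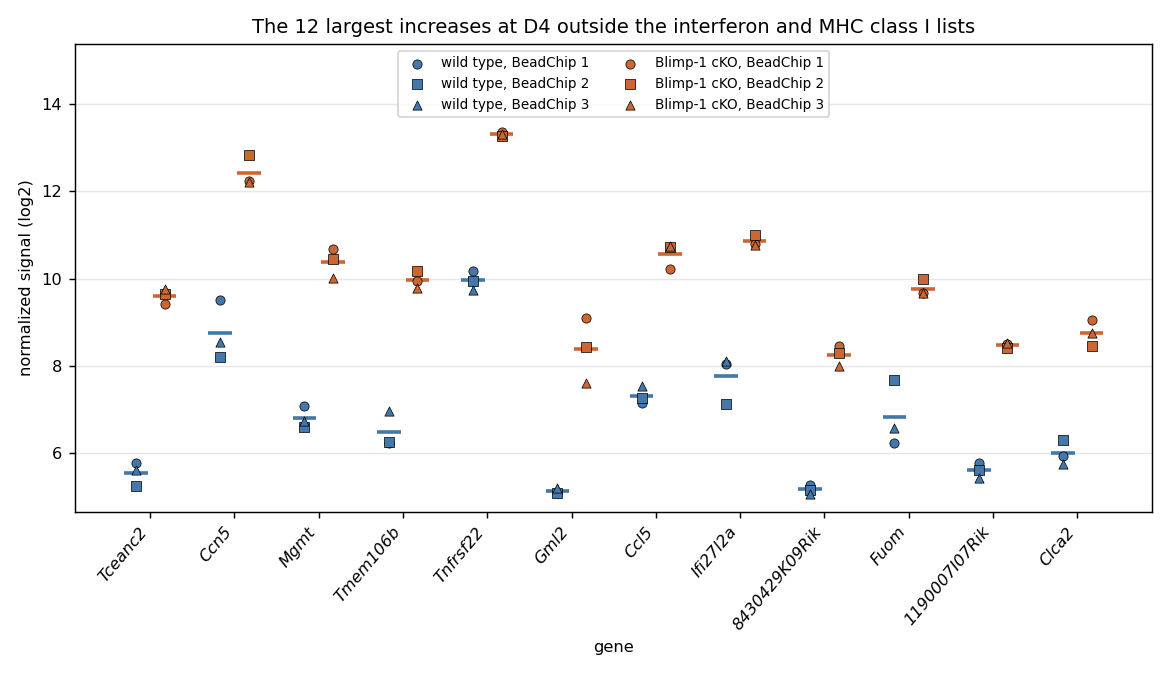
Normalized log2 signals on the 6 D4 arrays of the 12 genes with the largest increases outside the interferon and MHC class I lists, wild type in blue and cKO in orange. Marker shapes give the BeadChip and horizontal lines the group means. The genes were picked among those whose groups do not overlap, and Tceanc2 goes from a mean of 5.55 to 9.61.

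Cytokines and other targets of NF-kB, a transcription factor of inflammation, rose in 6 of 21 cases (2.95% among all genes) with none lower and a median of 0.38. Il1a, the alarm cytokine of epithelia, had 6.43, 7.58 and 7.68 on wild type arrays and 9.16, 8.65 and 9.46 on cKO arrays (log2 fold change of 1.86, adjusted p = 0.00501). Lif, a cytokine that acts through STAT3, had 8.39, 8.87 and 8.32 against 9.92, 9.89 and 10.39. Its 2 other probes rose by 1.75 and 1.17, the latter (1234792) from below background on all wild type arrays. Csf2, which encodes the growth factor GM-CSF, was at least 3.04-fold higher. The inhibitor of the pathway, Nfkbia, differed by -0.53 and Lcn2 by -0.12, and neither passed. The medians within the BeadChips were 0.37, 0.14 and 0.47. With the BeadChip block on the D4 arrays alone, or without D4 wild type replicate 3 or D4 cKO replicate 1, 4 genes of the list were higher. The adjusted p reached 0.064 for Il1a and 0.0738 for Csf2.

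Of 11 chemokine genes 2 were higher and none lower. Ccl5, which attracts T cells, rose from 7.15, 7.26 and 7.53 to 10.21, 10.72 and 10.74, and Cxcl1, which attracts neutrophils, from 11.81, 11.80 and 11.22 to 13.54, 13.28 and 13.72 (log2 fold change of 1.90, adjusted p = 0.000792). Complement genes rose in 3 of 10 cases. Cfb and C2, the proteases of the alternative and classical pathways, rose by 2.11 and 1.52 on the log2 scale, and Serping1, the inhibitor of C1, by 1.73. The adjusted p of C2 was 0.0544 with the BeadChip block on the D4 arrays alone. Cfb had 5.83, 7.21 and 7.10 on wild type arrays and 8.77, 8.93 and 8.79 on cKO arrays, with D4 wild type replicate 1 the lowest. In the 9 other complement genes that array was the highest of the wild type, against 35.8% of all genes. Without it 3 complement genes were higher.

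Among 18 genes of cell death 3 were higher, Casp4 (1.01), Gsdmd (0.86) and Mlkl (0.63), of pyroptosis and necroptosis, and Fas, the death receptor, was lower (-0.65). All 3 tested probes of Gsdmd rose and all 3 of Fas fell, but 2 other probes of Casp4 did not pass. Of 13 genes of the TNF receptor family, Cd40 rose by 1.12 and Tnfrsf11b, the decoy receptor osteoprotegerin, by 0.83, while Tnfrsf21, death receptor 6, fell by 0.90 besides Fas. The calls of Fas and Tnfrsf21 ended in 7 and 8 alternatives, with adjusted p-values of up to 0.114 and 0.146. With the BeadChip block on the D4 arrays alone 0 cell death genes passed by limma, while 10 had an unadjusted p under 0.05 in the fit of all arrays.

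Single growth factors were higher. Inhba, a subunit of activin, had 12.50, 11.86 and 11.78 on wild type arrays and 13.47, 13.10 and 12.86 on cKO arrays (log2 fold change of 1.10, adjusted p = 0.0222), and Bmp7, a bone morphogenetic protein, rose by 1.48. Wnt10a, a Wnt ligand, had 7.66, 8.20 and 7.94 against 9.08, 8.88 and 9.14 (log2 fold change of 1.10, adjusted p = 0.00294). Nrg1, a ligand of the receptors ErbB3 and ErbB4, was at least 1.23-fold higher. The calls of Inhba and Nrg1 ended in 5 alternatives each and that of Bmp7 in 4, with adjusted p-values of up to 0.0951, 0.0902 and 0.0834, and that of Wnt10a with the BeadChip block on the D4 arrays alone (0.0551). In the TGF-beta and BMP list 0 genes passed by limma without D4 wild type replicate 2 or 3 or D4 cKO replicate 1. The rest of these lists did not pass apart from Id2, and their medians were 0.01 for TGF-beta and BMP, 0.18 for Wnt and Notch and 0.12 for EGF ligands and receptors. Hes1, a target of Notch, had 13.56, 13.82 and 13.71 on wild type arrays and 12.63, 12.68 and 13.49 on cKO arrays, and its difference of -0.77 did not pass (adjusted p = 0.174).

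The list of glycolysis and glucose use held 4 higher genes of 24, and 3 of them are not glycolytic enzymes. Plod2 and P4ha2, which hydroxylate collagen, rose by 1.24 and 0.97 on the log2 scale, and Vegfa, the angiogenic growth factor, rose from 11.58, 11.57 and 11.44 to 12.42, 12.41 and 12.30 (log2 fold change of 0.85, adjusted p = 0.00245). These 3 are known targets of the hypoxia response. The call of Plod2 ended in 5 alternatives, with an adjusted p of up to 0.0951. The fourth was Pkm, pyruvate kinase (0.61), whose other tested probe (1236323) rose by 1.19, and whose call ended without D4 wild type replicate 1 and with the BeadChip block on the D4 arrays alone. Ldha, lactate dehydrogenase, was at the top of the scale and differed by -0.07.

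Glutathione and NRF2 genes moved both ways, with 1 higher and 2 lower of 26 and a median of 0.04. Besides Gpx3, Cbr2, a carbonyl reductase gene, was lower (-0.67), and Gpx2, an intracellular glutathione peroxidase gene, was higher, with cKO log2 signals of 12.99, 12.42 and 13.88 (log2 fold change of 1.5, adjusted p = 0.045). The call of Gpx2 ended in 11 alternatives and that of Cbr2 in 7, with adjusted p-values of up to 0.141 and 0.105. Jun, an immediate early transcription factor, was the only called gene of 20 in its list (4.58% called among all genes). It fell by 1.45 on the log2 scale (adjusted p = 0.0373, and up to 0.12 in 10 alternatives).

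Housekeeping functions did not pass. By limma 0 genes were called among 28 of oxidative phosphorylation (2 at an unadjusted p under 0.05), 22 of the unfolded protein response (5), 17 ribosomal proteins (2) and 15 of the circadian clock (4). Their medians were -0.06, -0.02, 0.01 and 0.01. Xbp1, the transcription factor of the unfolded protein response and a known target of Blimp-1 in plasma cells, had 14.45, 14.52 and 14.55 on wild type arrays and 14.01, 14.19 and 14.29 on cKO arrays, a difference of -0.34 that did not pass (adjusted p = 0.0707).

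Interferon-stimulated genes had the highest median of the 42 lists at D4. Of 45 tested, 34 were higher and none lower, with a median of 1.37, and medians of 1.21, 1.39 and 1.41 within the BeadChips. At D3, 39 of the 45 were higher, with a median of 2.095. Ifi47, an interferon-inducible GTPase, was below background in wild type (5.66, 5.87 and 5.61) and had 10.76, 10.56 and 10.75 on cKO arrays, at least 21.8-fold higher. Ifit3, an RNA-binding antiviral protein, had 10.39, 10.95 and 10.68 against 13.53, 13.84 and 13.85. Among MHC class I genes and their peptide supply 9 of 17 were higher and none lower, and 5 with the BeadChip block on the D4 arrays alone or 6 without D4 wild type replicate 2 or 3. Nlrc5, the transactivator of these genes, rose by 1.61 on the log2 scale and Tap1, a peptide transporter, by 1.40 (adjusted p = 0.0505 with that block), while B2m, at the top of the scale, differed by -0.05.

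Promoter sequences from RefSeq (GRCm38.p6) were searched on both strands for 3 short motifs, over 250 bases before to 50 after the first listed start of each gene. They were found for 219 of 300 higher, 134 of 166 lower and 8241 of 10165 tested genes. The core of the interferon-stimulated response element, 2 copies of GAAA with NN between them, was present in 12.8% of the higher and 1.49% of the lower genes, against 3.01% of all tested genes. Among the higher genes it was in 14 of 33 promoters of the interferon and MHC lists (42.4%) and in 14 of 186 of the others (7.53%). AGNGAAAG, the core of Blimp-1 sites, was in 7.76% of the higher and 12.7% of the lower genes (17 of 134), against 7.37% of all. ACANNNTGT, the core of a glucocorticoid receptor site, was in 4.11% and 6.72% (9 of 134), against 3.69%. Matches of different motifs overlapped in 2 promoters of called genes. A match describes the letters only, and base composition was not matched.

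The 250 bases before the start site are shown for 4 called genes, chosen after their values and matches were seen, with the matches in capitals. Cxcl10 (log2 fold change of 3.43) and Apol9a (1.87) show the interferon element, which is doubled on the reverse strand in Apol9a, a gene outside the interferon list. Tmod4 (-2.33) shows a Blimp-1 core in a lower gene, and Lyz2 (-1.17) a Blimp-1 core on the reverse strand downstream of a glucocorticoid receptor core.
Cxcl10, chr5:92348890-92349139, minus strand: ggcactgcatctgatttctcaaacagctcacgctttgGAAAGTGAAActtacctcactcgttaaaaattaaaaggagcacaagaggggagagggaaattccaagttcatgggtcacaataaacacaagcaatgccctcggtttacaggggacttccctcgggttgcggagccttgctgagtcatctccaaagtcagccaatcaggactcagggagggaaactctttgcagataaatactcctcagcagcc
Apol9a, chr15:77411081-77411330, minus strand: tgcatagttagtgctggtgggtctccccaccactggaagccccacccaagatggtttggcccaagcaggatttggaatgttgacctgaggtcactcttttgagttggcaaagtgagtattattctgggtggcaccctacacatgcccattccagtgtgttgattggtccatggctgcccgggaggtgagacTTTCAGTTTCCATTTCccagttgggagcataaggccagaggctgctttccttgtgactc
Tmod4, chr3:95124264-95124513, plus strand: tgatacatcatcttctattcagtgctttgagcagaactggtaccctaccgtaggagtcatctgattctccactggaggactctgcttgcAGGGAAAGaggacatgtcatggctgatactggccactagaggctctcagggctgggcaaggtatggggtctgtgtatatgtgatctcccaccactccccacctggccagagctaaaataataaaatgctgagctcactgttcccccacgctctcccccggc
Lyz2, chr10:117282273-117282522, minus strand: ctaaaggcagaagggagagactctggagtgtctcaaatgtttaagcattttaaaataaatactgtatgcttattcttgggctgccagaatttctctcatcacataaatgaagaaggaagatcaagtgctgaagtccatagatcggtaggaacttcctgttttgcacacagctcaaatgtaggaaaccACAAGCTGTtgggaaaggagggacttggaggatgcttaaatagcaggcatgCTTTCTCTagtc

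The lower genes Lyz2 and Lyz1 encode lysozyme, which macrophages and secretory epithelia make. Lyz2 had 11.52, 10.89 and 10.98 on wild type arrays and 9.996, 9.93 and 9.96 on cKO arrays (adjusted p = 0.00645), and Lyz1 had 12.82, 12.11 and 12.28 against 11.55, 11.21 and 11.60. Both had their highest value on D4 wild type replicate 1, and the call of Lyz1 ended in 7 alternatives, also without that array (adjusted p of up to 0.0963). The genes are near-identical copies whose probes may bind both, so they count as uncertain as separate genes. They were the only called genes of 9 tested myeloid markers, whose summed linear signal ranged from 25360 to 32120 in wild type and 18000 to 24770 in cKO arrays. The leukocyte genes Ptprc, Itgam and Adgre1 were below the detection filter.

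Of 15 lymphocyte markers 14 were without a tested probe, as were 9 of 10 adipocyte markers. Of 11 fibroblast markers Pdpn, a surface glycoprotein that basal mammary cells also make, was higher (0.63, adjusted p = 0.0373), and 9 had positive differences. The call of Pdpn ended in 9 alternatives, with an adjusted p of up to 0.138. Without D4 wild type replicate 1, 5 of the list were higher, and without D4 wild type replicate 2 or 3 or D4 cKO replicate 1 or 2, or with the BeadChip block on the D4 arrays alone, 0 passed by limma. The summed signal of the list ranged from 9595 to 16640 in wild type and 16690 to 20740 in cKO arrays. Of 11 endothelial markers 0 passed by limma (2 at an unadjusted p under 0.05), and their sums of 2887 to 5323 and 3786 to 5246 overlapped. The part of these cells in the differences of matrix and contractile genes was not tested, and in such bulk samples fewer cells of a type and less RNA per cell cannot be told apart.

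The same genes were measured on the 6 arrays of D3, where 2.54% of genes were called, 1.99% higher and 0.551% lower. Of the 300 genes higher at D4, 283 had the same sign at D3 and 159 were called there, with a median of 0.82. Of the 166 lower genes 139 had the same sign and 42 were called, with a median of -0.33. None was called in the opposite direction. The interferon-stimulated list had a larger median at D3 (2.095) than at D4 (1.37), and the MHC class I list a smaller one (0.36 against 0.73). These differences between the days were not tested for the lists. Cdkn1c was as low at D3 (-2.80) as at D4 (-2.83), and so was Cdkn1b (-1.04 and -1.16). Pip (-0.25 at D3), Sult1a1 (-0.08), Col9a1 (0.36) and Ly6d (0.43) were not called at D3, nor were Lif (0.34) and Mmp9 (-0.31).

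**Figure D5:**
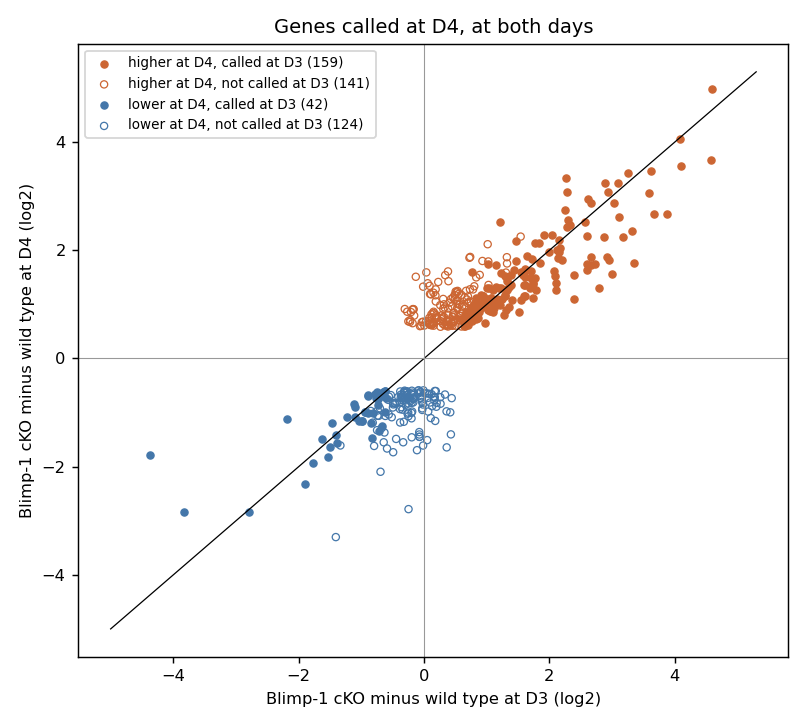
Log2 difference between Blimp-1 cKO and wild type at D4 against that at D3 for the 466 genes called at D4, with filled points for genes also called at D3 (159 higher and 42 lower) and a line of equal effects. Higher genes spread around the line, and many lower genes lie near 0 at D3.

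A call at D4 alone does not show that the effect differed between the days. The difference was tested in the same fit, and by limma 0 genes passed (787 at an unadjusted p under 0.05). The lowest adjusted p was 0.0883, shared by 7 genes that included Pip. Without background correction 4 genes passed, and with the trend and robust options of limma 6. The fit did not pair D3 with D4 arrays of the same number. Residuals of such arrays correlated by 0.32 to 0.38 in cKO and by 0.08 to 0.19 in wild type. A fit that paired the days was not run.

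Called genes were found on every autosome, at between 2.03% and 6.19% of its tested genes. Such shares do not show whether called genes lie close together, and neighbours were counted only around the loci below. Around Prdm1, which was targeted in the cKO donors, 2 of the 60 nearest tested genes were called (3.33%), Foxo3 and Scml4, both lower. Around the ROSA26 locus on chromosome 6, which carries the Cre transgene, 0 of 60 were called, against 4.58% of all genes. Cdkn1c and Pbp2 were taken as further centres with their decreases already known. Around Cdkn1c 6 of 47 (12.8%) and around Pbp2, also on chromosome 6, 9 of 60 (15%) were called. These include Tnfrsf22 and Irf7 near Cdkn1c, and Clec2e and Cdkn1b near Pbp2. The donor line cannot be told apart from the genotype at these places.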

How the data were processed

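RNA of MEC 3D cultures was hybridised to Illumina Mouse WG-6 v2 BeadChips, 3 per genotype on D3 and again on D4. Array summaries came from GenomeStudio. The analysis began from the intensity values that the authors deposited before any normalization. The deposited detection p-values rate each probe against control beads on its array. A rank-invariant normalized intensity table of the authors served as an alternative.

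All 12 arrays were treated together by neqc (limma 3.58.1, R 4.3.3), which estimates background from the detection p-values, adds an offset of 16, applies quantile normalization and takes log2. Of 45281 probes, 34885 have 1 gene symbol, 18 have several and 10378 have none. Probes detected at p below 0.05 on 3 or more of the 6 D4 arrays entered a limma fit with 4 group means, with Benjamini-Hochberg adjustment over the 18627 probes. With 3 arrays a side, an exact permutation test reaches p = 0.1 at best. Precision is limited by the number of arrays. Figures were drawn with matplotlib 3.10.9.

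The members and the 42 gene lists (904 genes) were chosen with earlier results of these data known. A rule picked the genes named: among called genes without overlap, the 14 largest decreases and 12 largest increases outside the interferon and MHC class I lists, the 4 largest interferon increases, 3 called and 2 bright members of each list, and Prdm1. Further called members of lists, and genes said to be chosen after their values were seen, fall outside it.

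That same-numbered D4 arrays shared a BeadChip was read from the column names of a supplementary probe table, where 598 of 598 probes per array matched the processed values to 0.1%. Their residuals correlated by -0.07, 0.03 and -0.09 between genotypes. Residuals of same-numbered arrays of different days correlated by 0.32 to 0.38 in cKO and by 0.08 to 0.19 in wild type. Alternatives covered the processed values (floor of 10), background correction, the filter, the BeadChip block, the arrays fitted, the variance model, the probe choice, the fold minimum, single arrays left out and an unpaired t-test. The study names that test for other measurements, and the GenomeStudio error model it names for arrays was not run. The fit was tested on simulated data with known changes.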

Additional observations from a re-analysis of the deposited data

How the results depend on the processing

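With all 3 arrays of each group, 300 genes were higher and 166 lower at D4. Fitting the D4 arrays alone with the replicate block gave 191 and 41, and an unpaired t-test with the same fold minimum gave 73 and 11 after adjustment, and 393 and 236 at an unadjusted p up to 0.05. The other planned settings gave 323 and 123 (processed values floored at 10), 268 and 122 (no background correction), 264 and 124 (no filter), 303 and 179 (stricter filter), 334 and 141 (replicate block on 12 arrays), 254 and 111 (D4 arrays alone), 347 and 175 (trend and robust options), 374 and 211 (any probe of a gene) and 357 and 230 (no fold minimum). Leaving out single arrays gave 203 to 372 higher and 94 to 174 lower genes. Leaving out a whole BeadChip, chosen after seeing the data, gave 264, 173 and 196 higher and 98, 72 and 98 lower genes for BeadChips 1, 2 and 3. For the difference between D4 and D3, 4 genes passed without background correction, 6 with the trend and robust options and 0 in each leave-one-out fit. Of 88 named called genes 39 were called in every setting run for single genes and 49 were not, and none changed direction. Where calls were lost, the cause was not tested. Signals near background give only a bound on the fold, and signals near the top of the scale give small differences.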

Other observations

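Genes in this section were chosen after their values were seen. Has2, which makes hyaluronan, a matrix polysaccharide, had log2 signals of 10.80, 10.65 and 10.70 on wild type arrays and 12.28, 11.94 and 12.16 on cKO arrays at D4 (adjusted p = 3.18e-05). The groups did not overlap, as in 25.1% of all genes, and the difference at D3 was 0.23. Other secreted factors that were higher at D4 were Il11 and Il24, cytokines of the IL-6 and IL-10 families, Wnt7a, a Wnt ligand, and Artn, a neurotrophic factor that signals through RET. Among lower genes were Kitl, the ligand of the luminal receptor Kit, and Edn2, an endothelin, each by 1.06 on the log2 scale.

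A few genes differed widely between arrays of a group. Only 6 genes had a range of at least 3 on the log2 scale within a genotype at D4, while the median range was 0.287 in wild type and 0.307 in cKO. Gbp2b, an interferon-inducible GTPase, had 12.25, 5.33 and 12.33 on the D4 cKO arrays and 11.41, 5.10 and 11.52 on the D3 cKO arrays, with replicate 2 low on both days. Rpe, an enzyme of the pentose phosphate pathway, had 9.08, 5.33 and 8.72 at D4 and 8.67, 5.33 and 7.997 at D3 in the same order. Mvb12b was low on cKO replicate 3 on both days (6.14 and 6.52). Gsta3, a glutathione transferase, was lowest on cKO replicate 1 on both days (7.24 and 6.69). Sgip1 was low on wild type replicate 1 on both days (7.87 and 8.11). For S100a9, a neutrophil calcium-binding protein, the D4 wild type arrays had 8.47, 6.66 and 5.41. It is not stated whether cultures of the same number at D3 and D4 came from the same animals.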
